A study of Mus musculus with 9 samples.

Results

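The 10 genes described here are 9 activity-induced genes whose products act at synapses (Arc, Bdnf, Homer1, Nptx2, Plk2, Sik1, Nrn1, Rgs4 and Rheb) and the transcription factor Npas4. They were chosen by symbol, with earlier results of these data known, and all 10 were found among the 55536 genes of the count table and passed the filter on low counts, which kept 17457 genes. Since values of the contrasts between transgenic and non-transgenic libraries had a part in the choice, those contrasts are given for the 10 genes as a description: fold changes carry no p-value, and the counts of genes called are printed beside the share of all genes and support nothing. Arc, Npas4 and Sik1 stood lower in transgenic hippocampus at 24 weeks than in every non-transgenic library. Plk2 stood slightly higher there in reads relative to library size, while its groups overlapped in the deposited TPM values. The other 6 genes overlapped between these groups. Of all tested genes, 7.14% had such a gap on the lower side and 9.72% on the higher side.

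RNA of mouse hippocampus was sequenced in 9 libraries: 3 of hAPP-J20 mice (Tg) at 24 weeks of age, 3 of Tg mice at 15 weeks, 2 of wild-type mice (nTg) at 24 weeks (replicates 1 and 3) and 1 of nTg at 15 weeks (replicate 2). The J20 line carries a human APP minigene with familial Alzheimer mutations, driven in neurons by the PDGF-B promoter, beside the mouse App gene that all groups have. The series sets an age before plaques (15 weeks) against one after plaques (24 weeks), and its title concerns astrocytes, insulin resistance and signals between brain and periphery. The titles call the libraries biological replicates, but the labels give no sex, no treatment and no statement that each library is a separate animal. The p-values therefore speak for the variation among these 9 libraries, which may be technical in part. The batch label equals age, so the effects of age and of batch cannot be told apart. A name such as Tg_24w_3 gives genotype, age and replicate.

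When a neuron fires, calcium entry and kinases such as ERK and CaMK activate CREB, SRF and MEF2, which switch on immediate-early genes within minutes without new protein synthesis. Some of these genes encode transcription factors, such as Fos and Egr1, and others encode proteins that act directly on synapses. Arc removes AMPA receptors from the postsynaptic membrane, the short Homer1a form of Homer1 loosens the scaffold below metabotropic glutamate receptors, BDNF and neuronal pentraxin 2 are secreted, and Plk2 and Sik1 are kinases induced by activity. In the hippocampus this programme is known for its part in long-term memory and in homeostatic scaling of synapses.

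Total counts lay between 12733452 (Tg_24w_3) and 21529266 (Tg_15w_3), and levels are given in CPM, read counts relative to library size after TMM scaling. Tg_24w_3 stood apart on the first principal component, at 84.6 against −30.9 to 4.87 in the other 8 libraries (37.1% of variance), and nTg_24w_1 held both Xist (7.34 CPM) and the Y-linked Ddx3y (39 CPM), where each other library had at most 0.149 CPM of Xist or none of Ddx3y, so results that rest on either are also given without it. Mouse App, into which reads of the human transgene can be counted only where the sequences match, ranged over 804.2 to 1542 CPM in Tg and 1023 to 1501 CPM in nTg, so it did not check the genotype labels. All 10 dentate granule cell, 8 CA1 and 7 CA3 pyramidal cell markers were detected in every library.

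On the per-length TPM scale levels of different genes can be compared. There the 10 genes were placed in 4 levels by their mean over the 9 libraries. The neighbouring pair at each of the 3 steps between levels kept its order in 9 of 9 libraries. Other pairs across a step did not always. In Tg_24w_3 Arc (14.65 TPM) was below Bdnf (25.45 TPM) and Homer1 (17.95 TPM). In nTg_24w_1 Nptx2 (18.68 TPM) was below Homer1 (19.37 TPM). Nrn1, which encodes the GPI-anchored neuritin, was at 95.06 ± 16.0 TPM (SD, n = 9), the kinase Plk2 at 93.05 ± 11.0 TPM and Rgs4, a brake on G-protein signalling, at 91.8 ± 17.8 TPM. These 3 could not be ordered, since each neighbour pair kept its order in only 5 of 9 libraries. Arc followed at 39.15 ± 20.9 TPM, Rheb, a small GTPase that activates mTORC1, at 34.0 ± 2.61 TPM and Nptx2 at 31.54 ± 7.35 TPM, with overlapping ranges. Rgs4 was above Arc and Nptx2 above Bdnf in each library, although the ranges over libraries overlapped. Bdnf was at 17.71 ± 3.48 TPM and Homer1 at 17.13 ± 2.66 TPM. Npas4 (4.15 ± 1.93 TPM) and Sik1 (3.365 ± 1.33 TPM) were lowest, and Homer1 against Npas4 was the one neighbour pair whose ranges did not overlap. On log2 CPM the SD over 9 libraries was 0.658 for Arc, 0.622 for Npas4 and 0.474 for Sik1, against 0.122 for Plk2, 0.145 for Rheb and 0.156 for Nrn1.

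The promoters of 4 of these genes are shown because each holds at least 2 copies of TGACG, the CRE half-site that CREB can bind. In transgenic hippocampus at 24 weeks, Npas4 lay below the non-transgenic libraries and Plk2, in CPM but not in TPM, above them. Homer1 and Rgs4 overlapped them (described further on). RefSeq promoters (GRCm38.p6, 250 bases before to 50 after the annotated start, read 5′ to 3′ on the strand of the gene) were at hand for 6 of the 10 genes. Arc, Nptx2, Sik1 and Nrn1 had no entry, Rheb had 1 half-site, and of 7 Bdnf windows 1 held a half-site. The other Homer1 window held none. Capitals mark TGACG on either strand (CGTCA when it lies on the other one). The windows are chr19:4989922-4990221 (minus strand) for Npas4, chr13:110394794-110395093 (plus strand) for Plk2, chr13:93303507-93303806 (plus strand) for Homer1 and chr1:169747593-169747892 (minus strand) for Rgs4.
Npas4: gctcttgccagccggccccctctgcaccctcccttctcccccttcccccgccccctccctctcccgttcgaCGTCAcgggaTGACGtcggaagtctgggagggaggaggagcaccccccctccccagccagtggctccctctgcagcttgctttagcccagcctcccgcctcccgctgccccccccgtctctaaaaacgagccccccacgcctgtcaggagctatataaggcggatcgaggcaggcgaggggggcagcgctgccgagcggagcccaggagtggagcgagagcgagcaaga
Plk2: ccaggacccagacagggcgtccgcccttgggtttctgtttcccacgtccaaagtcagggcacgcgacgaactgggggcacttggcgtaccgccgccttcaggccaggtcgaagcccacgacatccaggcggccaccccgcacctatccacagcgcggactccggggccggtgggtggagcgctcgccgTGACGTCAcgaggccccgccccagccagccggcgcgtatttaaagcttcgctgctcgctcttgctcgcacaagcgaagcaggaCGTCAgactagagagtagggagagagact
Homer1: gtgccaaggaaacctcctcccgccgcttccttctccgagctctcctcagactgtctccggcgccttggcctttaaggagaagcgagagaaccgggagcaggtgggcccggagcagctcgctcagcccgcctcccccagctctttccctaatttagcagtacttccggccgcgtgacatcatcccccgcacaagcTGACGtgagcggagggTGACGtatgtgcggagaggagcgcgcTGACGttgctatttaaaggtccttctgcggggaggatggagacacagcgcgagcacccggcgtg
Rgs4: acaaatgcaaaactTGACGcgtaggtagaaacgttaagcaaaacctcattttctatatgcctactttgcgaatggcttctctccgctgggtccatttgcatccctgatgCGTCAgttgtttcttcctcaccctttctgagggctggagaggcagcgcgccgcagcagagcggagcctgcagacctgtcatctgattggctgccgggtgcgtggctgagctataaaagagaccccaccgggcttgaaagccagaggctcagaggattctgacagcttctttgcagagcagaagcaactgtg

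The Plk2 promoter holds the full palindromic site TGACGTCA, which is 2 overlapping half-sites beginning 62 and 59 bases before the start, and a further half-site after the start. In the Npas4 promoter 2 half-sites on opposite strands begin 179 and 169 bases before the start. Homer1 has 3 half-sites, beginning 56, 40 and 14 bases before the start of this transcript, and Rgs4 has 2, at 236 and 141 bases. The full site occurs in 588 of 32851 mouse promoter windows of this length (1.79%) and the half-site, on either strand, in 6837 (20.81%), so half-sites are common. A match describes letters in the window and not a site in use.

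Among the 10 genes, Npas4 encodes a neuron-specific transcription factor that is induced by calcium and regulates inhibitory synapses and Bdnf (chromosome 19, 4984355 to 4990316, minus strand, GRCm38). It was at 10.23, 9.093 and 13.05 CPM in nTg_24w_1, nTg_15w_2 and nTg_24w_3. In Tg at 15 weeks it was at 7.735, 5.341 and 11.38 CPM, and in Tg at 24 weeks at 4.853, 4.76 and 3.906 CPM. The 24-week Tg libraries were below all 6 others, and the 15-week Tg libraries spread 2.13-fold and overlapped the controls. Against nTg the log2 fold change was −0.40 ± 0.25 (SE) at 15 weeks and −1.25 ± 0.26 at 24 weeks. The 15-week value was −0.16 ± 0.36 against the same-age control, −0.17 without Tg_15w_2, −0.24 without nTg_24w_3 and −0.72 without Tg_15w_3. These levels rest on 48 to 252 reads a library.

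The postsynaptic genes differed from each other. Arc, whose product drives internalisation of AMPA receptors (chromosome 15, 74669083 to 74672570, minus strand), was at 106.8, 90.53 and 59.87 CPM in nTg (24 weeks replicate 1, 15 weeks replicate 2, 24 weeks replicate 3). The 15-week Tg libraries had 44.52, 43.47 and 47.05 CPM and the 24-week ones 35.69, 38.03 and 24.9 CPM. All 6 Tg libraries lay below all 3 nTg libraries, a pattern that 1.2% of tested genes share, and every 24-week Tg library lay below every 15-week one. The 15-week Tg libraries kept within 1.08-fold of each other and the controls spread 1.78-fold. Arc's log2 fold change against nTg was −0.93 ± 0.21 at 15 weeks and −1.38 ± 0.21 at 24 weeks. Compared only with nTg of its own age, it was −1.01 ± 0.30 at 15 weeks, with 1 control library, and −1.34 ± 0.24 at 24 weeks.

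Homer1 encodes the scaffold that links metabotropic glutamate receptors to Shank and to calcium stores (chromosome 13, 93299635 to 93405129, plus strand), and the counts per gene do not separate the induced Homer1a form from the long forms among its 12 annotated transcripts. It was at 100.5, 103.4 and 99.65 CPM in nTg, the least variable of the 10 genes among controls. Tg at 15 weeks had 113.6, 100.7 and 86.01 CPM, and Tg at 24 weeks 77.5, 61.93 and 119.5 CPM. Tg_24w_1 and Tg_24w_2 lay below every other library, while Tg_24w_3, the library that stands apart, was the highest of all 9. The log2 fold change at 24 weeks was −0.23 ± 0.20, and −0.54 without Tg_24w_3. On the TPM scale Tg_24w_3 was at 17.95 TPM, level with nTg_24w_3 at 17.95 TPM, and no longer the highest.

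**Figure D1:**
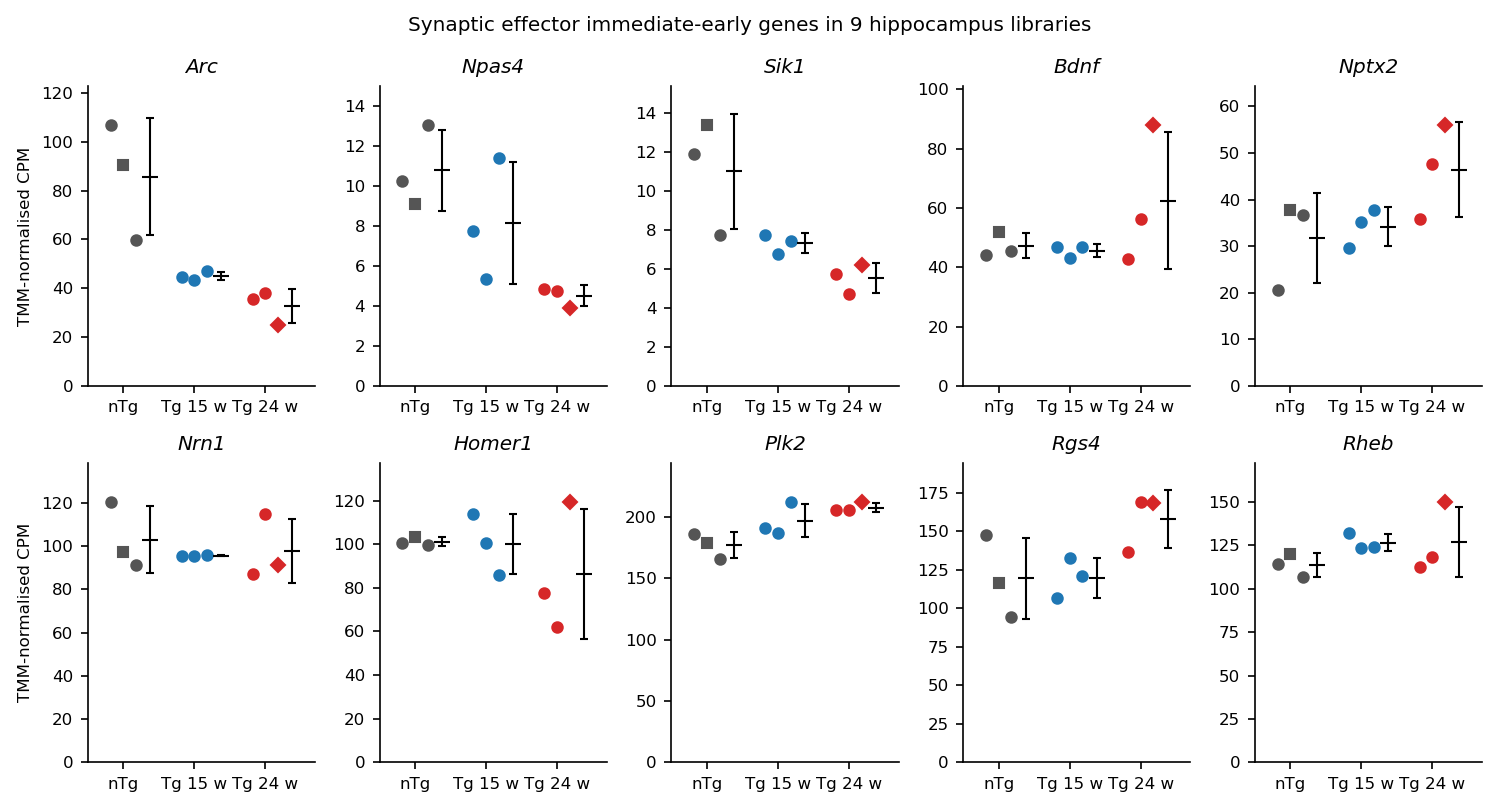
TMM-normalised CPM of the 10 genes (y axis, from 0) in each library by group (x axis); circles are single libraries, the square is the 15-week nTg library, the diamond is Tg_24w_3, and bars give mean ± SD (n = 3). Arc lies lower in all 6 Tg libraries, and Bdnf, Nptx2, Homer1 and Rheb have their highest value in Tg_24w_3.

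Of the secreted and surface proteins, Bdnf (chromosome 2, 109674700 to 109727007, plus strand), the neurotrophin that acts through TrkB, was at 44.26, 52.02 and 45.53 CPM in nTg and 46.76, 43.0 and 47.0 CPM in Tg at 15 weeks. At 24 weeks Tg had 42.97, 56.39 and 87.97 CPM, so that 1 library held the lowest and another the highest value of the series. The log2 fold change at 24 weeks, 0.40 ± 0.21, was 0.07 without Tg_24w_3 and 0.01 without both Tg_24w_3 and nTg_24w_1. Tg_24w_3 was also highest on the TPM scale, at 25.45 against 14.52 to 20.27 TPM elsewhere. Reads of the 11 annotated Bdnf transcripts, which start from separate promoters, and of the antisense gene Gm45346 are not separable here.

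Nptx2, which clusters AMPA receptors on inhibitory neurons (chromosome 5, 144545902 to 144557478, plus strand), was at 20.53, 37.81 and 36.77 CPM in nTg. At 15 weeks the Tg libraries had 29.68, 35.12 and 37.84 CPM, and at 24 weeks 35.74, 47.6 and 55.99 CPM. Of the 24-week Tg libraries, 2 were above all others and the third lay among the controls. The control nTg_24w_1 was the lowest of all 9 libraries. The log2 fold change at 24 weeks was 0.55 ± 0.23, 0.31 without that library and 0.15 without it and Tg_24w_3. At 15 weeks it was 0.11 ± 0.23 and turned to −0.12 without nTg_24w_1 and to −0.15 against the same-age control.

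Nrn1, which promotes neurite and spine growth (chromosome 13, 36725361 to 36735131, minus strand), was at 120.6, 97.14 and 91.19 CPM in nTg. The Tg libraries had 95.29, 95.57 and 95.85 CPM at 15 weeks and 87.21, 114.7 and 91.22 CPM at 24 weeks. The groups overlapped throughout, and the 15-week Tg libraries lay within 1.01-fold of one another. Its log2 fold changes were −0.11 ± 0.15 at 15 weeks and −0.08 ± 0.15 at 24 weeks. Nrn1 overlaps Fars2 on the other strand, and the strand setting of the counting is not given in the sources used here.

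The kinases lay on opposite sides of the controls. Sik1, a salt-inducible kinase that phosphorylates CRTC coactivators and class II histone deacetylases (chromosome 17, 31844250 to 31855804, minus strand), was at 11.9, 13.37 and 7.722 CPM in nTg. Tg libraries had 7.735, 6.769 and 7.45 CPM at 15 weeks and 5.713, 4.708 and 6.184 CPM at 24 weeks. The 24-week Tg libraries lay below all others, and at 15 weeks nTg_24w_3 lay within the Tg range. The log2 fold change was −0.59 ± 0.21 at 15 weeks and −0.997 ± 0.217 at 24 weeks. These levels rest on 76 to 269 reads a library. Against the same-age control, Sik1 at 15 weeks was at −0.87 ± 0.28 on the log2 scale.

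Plk2, a polo-like kinase that lowers the number of synapses after prolonged activity (chromosome 13, 110395046 to 110400844, plus strand), was at 186.3, 178.9 and 165.6 CPM in nTg. In Tg it was at 191.1, 187.3 and 212.5 CPM at 15 weeks and 205.4, 205.6 and 211.9 CPM at 24 weeks. All 6 Tg libraries were above all 3 controls, as holds for 1.12% of tested genes, by a log2 fold change of only 0.16 ± 0.12 at 15 weeks and 0.23 ± 0.12 at 24 weeks. On the TPM scale the groups overlapped and the 24-week difference was 0.12.

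The last pair acts on intracellular signalling. Rgs4, which speeds GTP hydrolysis by Gαi and Gαq (chromosome 1, 169741477 to 169747642, minus strand), was at 147.2, 116.2 and 94.5 CPM in nTg. Its Tg values were 106.3, 132.3 and 120.6 CPM at 15 weeks and 136.3, 169.1 and 168.3 CPM at 24 weeks. Every 24-week Tg library was above every 15-week one, but nTg_24w_1 overlapped them. On the TPM scale the 2 ages overlapped, with Tg_24w_1 at 94.31 TPM and Tg_15w_3 at 94.82 TPM. The log2 fold change against nTg was 0.01 ± 0.17 at 15 weeks and 0.40 ± 0.17 at 24 weeks. Rheb (chromosome 5, 24802823 to 24842624, minus strand) was at 114.2, 120 and 106.5 CPM in nTg. Its Tg values were 132.2, 123.4 and 124.1 CPM at 15 weeks and 112.2, 118.3 and 150.1 CPM at 24 weeks, where only Tg_24w_3 lay above all controls. Its log2 fold change was 0.16 ± 0.14 at both ages, and at 24 weeks it was 0.02 without Tg_24w_3.

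**Figure D2:**
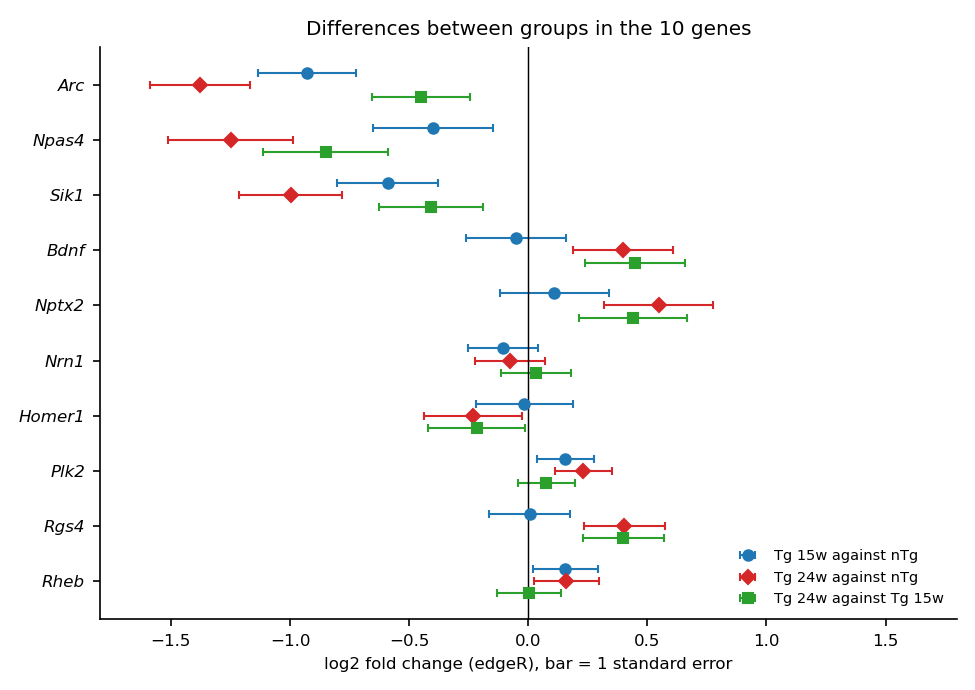
Log2 fold changes of the 10 genes (x axis) for Tg at 15 weeks against nTg, Tg at 24 weeks against nTg and Tg at 24 weeks against Tg at 15 weeks, with bars of 1 standard error. Arc, Npas4 and Sik1 are negative in each, from −0.40 to −1.38, and the other genes stay between −0.23 and 0.55.

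Across the 10 genes there was no common direction. At 24 weeks 5 fold changes against nTg were positive and 5 negative, with a median of 0.04 against 0.03 for all tested genes, and at 15 weeks 4 were positive and 6 negative, with a median of −0.03 against 0.00. Groups did not overlap at 24 weeks for Arc, Npas4 and Sik1 on the lower side, where 7.14% of tested genes had such a gap, and for Plk2 on the higher side, where 9.72% had one. At 15 weeks the gap was seen for Arc on the lower side (5.69% of genes) and for Plk2 and Rheb on the higher side (4.85%). On the TPM scale neither Plk2, at either age, nor Rheb at 15 weeks kept its gap. By edgeR's quasi-likelihood test with adjustment over all genes, 1 of the 10, Arc, passed the threshold of 0.05 at 24 weeks, where 0.132% of genes did (23 of 17457). By edgeR none of the 10 did at 15 weeks (2 at an unadjusted p under 0.05, 0 by DESeq2), where 0% of genes passed (575 unadjusted, and 2 by DESeq2). The count at 24 weeks was 0 when any of 6 single libraries was left out (Tg_24w_1, Tg_15w_1, Tg_15w_2, Tg_15w_3, nTg_24w_1 or nTg_15w_2), Arc then standing between −1.46 and −1.19, and also with same-age controls or on TPM values, while DESeq2 called 3 of the 10 (Arc, Npas4 and Sik1). Over all 17457 genes DESeq2 called 218 at 24 weeks. Since choice and contrast are not independent, nothing is read from these counts.

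**Figure D3:**
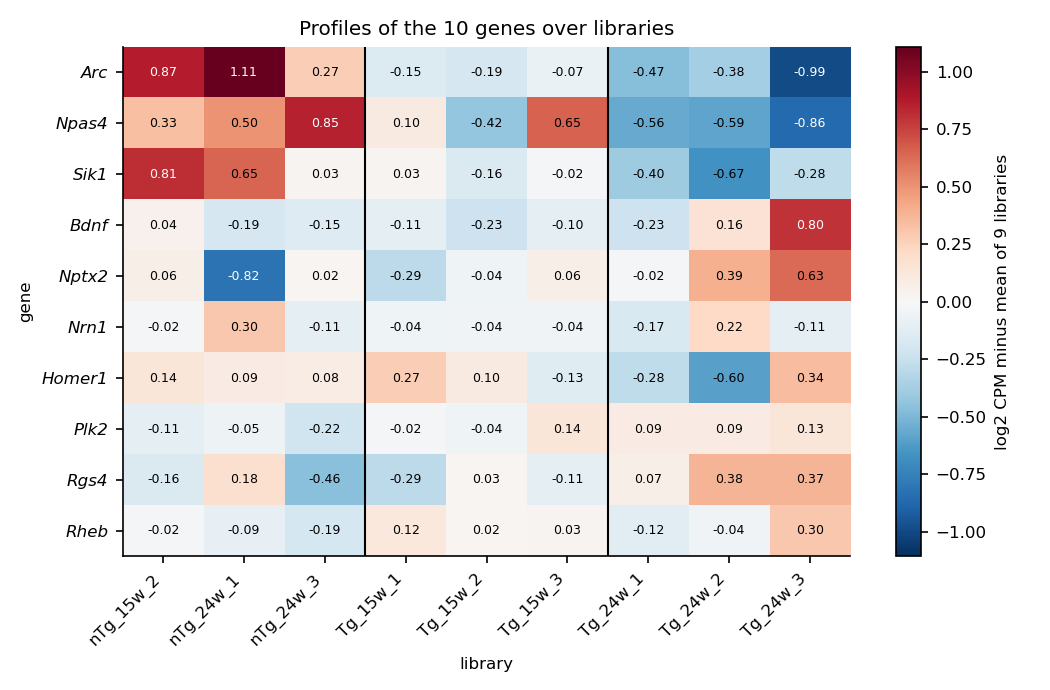
Log2 CPM of each of the 10 genes (rows) minus its mean over 9 libraries, by library (columns; lines separate nTg, Tg 15 weeks and Tg 24 weeks), with values printed in the cells. Arc, Npas4 and Sik1 share the pattern of high nTg and low Tg at 24 weeks, and Tg_24w_3 is at once lowest for Arc (−0.99) and highest for Bdnf (0.80).

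Tg at 24 weeks was also compared with Tg at 15 weeks, ages that the series sets after and before plaques. Plaque stage, age and batch label split these libraries alike and cannot be told apart. All of these libraries also enter the contrasts with nTg, and the comparison is the difference between those contrasts. Those contrasts had a part in the choice of genes. The values and p-values of the comparison for the 10 genes are therefore a description and support nothing. Arc, Npas4 and Sik1 were lower in all 3 older libraries than in all 3 younger ones, as were 10.2% of tested genes, and Rgs4 was higher, as were 10.6%. On the TPM scale the Rgs4 values of these groups overlapped. None of the 10 genes passed the edgeR test adjusted over all genes, which 6 of 17457 genes passed (0.0344%, with 0.0286% higher and 0.00573% lower). With edgeR, 3 of the 10 had an unadjusted p under 0.05, as did 15.2% of tested genes. DESeq2 also called none of the 10, where it called 187 of 17457 genes higher and 102 lower. The Npas4 difference was largest, −0.85 ± 0.26 on the log2 scale (edgeR adjusted p = 0.221, and 0.0185 to 0.586 under the alternatives). Without Tg_15w_3 it was −0.53. Arc differed by −0.45 ± 0.21 (edgeR adjusted p = 0.329) and Sik1 by −0.41 ± 0.22 (edgeR adjusted p = 0.395). Bdnf differed by 0.45 ± 0.21, Nptx2 by 0.44 ± 0.23 and Rgs4 by 0.40 ± 0.17, with edgeR adjusted p-values of 0.335, 0.379 and 0.3. Without Tg_24w_3 the difference was 0.12 for Bdnf, 0.27 for Nptx2, −0.30 for Arc and −0.53 for Homer1. Homer1 (−0.22 ± 0.20), Plk2 (0.08 ± 0.12), Nrn1 (0.03 ± 0.15) and Rheb (0.00 ± 0.14) had adjusted p-values from 0.649 to 0.994. The 95% intervals of these 4 reached from −0.66 to 0.23 for Homer1, −0.18 to 0.34 for Plk2, −0.29 to 0.35 for Nrn1 and −0.29 to 0.30 for Rheb, and differences inside them cannot be told from none.

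Whether the genotype difference itself changed with age was tested as an interaction in 4 groups, with nTg at 15 weeks resting on 1 library. None of the 10 genes passed (edgeR adjusted p = 1 for each, 0% of 19574 genes called, 408 at an unadjusted p under 0.05, 1 gene called by DESeq2). Npas4 had the largest value, −1.20 ± 0.48, followed by Nptx2 at 0.84 ± 0.40. These values are a description, since the interaction is built from the contrasts that had a part in the choice of genes. The Npas4 value was −1.47 to −0.88 without 1 library. The Nptx2 value was 0.49 without nTg_24w_1, 1.31 without nTg_24w_3 and 0.30 without both nTg_24w_1 and Tg_24w_3. For Arc it was −0.33 ± 0.40, and it turned to 0.16 without nTg_24w_1.

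The related genes of the programme, in lists drawn up with results of these data known, give the setting. Adjusted p-values of single genes are over all tested genes. The counts by list are a description and support nothing, since the choice of the lists and the contrasts are not independent. Of 20 immediate-early transcription factors, 3 fell in Tg at 24 weeks against nTg by edgeR (as did 0.0802% of tested genes), none rose, and 16 of 20 fold changes were negative, with a median of −0.37 against 0.03 for all genes. DESeq2 called 7 of the 20, all lower (Fos, Fosb, Egr1, Egr2, Egr4, Nr4a1 and Nr4a3), where it called 133 of all 17457 genes lower. Fos, a partner in AP-1, was at 3.134, 2.877 and 3.011 CPM in 24-week Tg libraries and 17.51, 16.55 and 11.77 CPM in nTg, a log2 fold change of −2.34 ± 0.27 (edgeR adjusted p = 0.00455). The orphan nuclear receptor Nr4a1 fell by 1.13 ± 0.17 (edgeR adjusted p = 0.0265) and the zinc finger factor Egr1 fell by 1.07 ± 0.17 (edgeR adjusted p = 0.0358). Egr2, of the same family, was at −2.87 ± 0.53 and did not pass with edgeR (adjusted p = 0.0646). Fos was called under all 16 alternatives, between −2.50 and −2.23. Nr4a1 lost its call without any 1 of Tg_24w_1, Tg_24w_2, Tg_15w_3, nTg_24w_1 or nTg_15w_2 (−1.19 to −1.01), and Egr1 without any single library other than Tg_24w_3 (−1.23 to −0.96). Against 24-week nTg only neither passed (Nr4a1 −1.08, edgeR adjusted p = 0.176, and Egr1 −1.07, edgeR adjusted p = 0.214), nor did they on TPM with limma (adjusted p = 0.093 and 0.158). At 15 weeks edgeR called none of the 20, and DESeq2 called Fos, with 2 genes called over all genes. An unadjusted edgeR p under 0.05 was found for 7 of the 20 and for 3.29% of all tested genes. Of the 20 fold changes 17 were negative, with a median of −0.33.

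Among 35 other activity-induced genes, 1 rose and 2 fell at 24 weeks by edgeR (0.0516% and 0.0802% of tested genes), with 21 of 35 negative and a median of −0.12. DESeq2 called 1 higher (Penk) and 5 lower (Pdyn, Dusp6, Dusp1, Btg2 and Trib1), against 85 higher and 133 lower of all 17457 genes. Penk, the precursor of enkephalin, was at 110, 106.7 and 169.5 CPM in Tg at 24 weeks against 20.4, 27.33 and 24.7 CPM in nTg, and rose by 2.41 ± 0.20 on the log2 scale (edgeR adjusted p = 0.000386). Pdyn, the precursor of dynorphin, fell by 1.35 ± 0.18 (edgeR adjusted p = 0.0124), and Dusp6, a phosphatase of ERK, fell by 0.81 ± 0.13 (edgeR adjusted p = 0.037). Penk was called under all 16 alternatives, whereas Pdyn lost its call without nTg_15w_2 (−1.32) or nTg_24w_3 (−1.25), and Dusp6 without any single library other than Tg_24w_3 (−0.87 to −0.78). Against 24-week nTg only Pdyn (−1.32, edgeR adjusted p = 0.0785) and Dusp6 (−0.79, edgeR adjusted p = 0.255) did not pass, and on TPM with limma Dusp6 did not (adjusted p = 0.162). Dusp1, an inducible phosphatase of MAP kinases, was at −0.84 ± 0.16 and did not pass with edgeR (adjusted p = 0.0908). Of the 35, edgeR called 1, Penk, between Tg at 24 and at 15 weeks (2.34 ± 0.20, edgeR adjusted p = 0.000848). There DESeq2 called Penk higher and Pdyn lower, against 187 higher and 102 lower of all 17457 genes. At 15 weeks against nTg edgeR and DESeq2 called none of the 35. There 6 of them had an unadjusted edgeR p under 0.05, as did 3.29% of all tested genes.

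The 34 binding partners and receptors of the 10 genes, such as AMPA receptor subunits, TrkB, Shank scaffolds and mTOR, had no gene called by edgeR in any of the 3 group comparisons. At an unadjusted edgeR p under 0.05 were 0 of the 34 at 15 weeks, 4 at 24 weeks and 8 between the ages. The shares of all tested genes there were 3.29%, 13% and 15.2%. DESeq2 called 2 of the 34 at 24 weeks (Shank1 and Shank3, both lower) and 0 in the other comparisons. Over all 17457 genes it called 133 lower at 24 weeks. At 24 weeks against nTg 25 of 34 were negative, with a median of −0.11. The lowest p belonged to Shank3, which binds Homer1 in the postsynaptic density, at 73.35, 68.68 and 83.98 CPM in 24-week Tg libraries and 111, 106.9 and 116.1 CPM in nTg (log2 fold change −0.56 ± 0.14, edgeR adjusted p = 0.204). Itpr1, the calcium release channel that Homer1 tethers, was at −0.51 ± 0.20 (edgeR adjusted p = 0.335). Between Tg at 24 and 15 weeks, Shank1 (−0.65 ± 0.21) and Shank2 (−0.62 ± 0.21) led the list (edgeR adjusted p = 0.229 and 0.237).

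Of 19 paralogs of the 10 genes, 17 passed the filter and edgeR called none in the 3 group comparisons. At an unadjusted edgeR p under 0.05 were 1, 5 and 4 of them, against 3.29%, 13% and 15.2% of all tested genes. DESeq2 called Ntf3 lower at 24 weeks, where it called 133 of all 17457 genes lower. It called Plk5 higher between the ages, where it called 187 genes higher. Ntf3, the neurotrophin related to Bdnf, was at 6.067, 4.237 and 3.174 CPM in 24-week Tg libraries and 8.753, 9.44 and 9.315 CPM in nTg, a log2 fold change of −1.01 ± 0.24 (edgeR adjusted p = 0.157). Plk5, a polo-like kinase of neurons and glia, was at 16.89, 16.37 and 20.91 CPM in 24-week Tg libraries and 9.34, 9.361 and 9.752 CPM in 15-week ones, a difference of 0.93 ± 0.16 (edgeR adjusted p = 0.109). Rhebl1, the paralog of Rheb, was at 0.91 ± 0.31 at 24 weeks against nTg (edgeR adjusted p = 0.303).

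**Figure D4:**
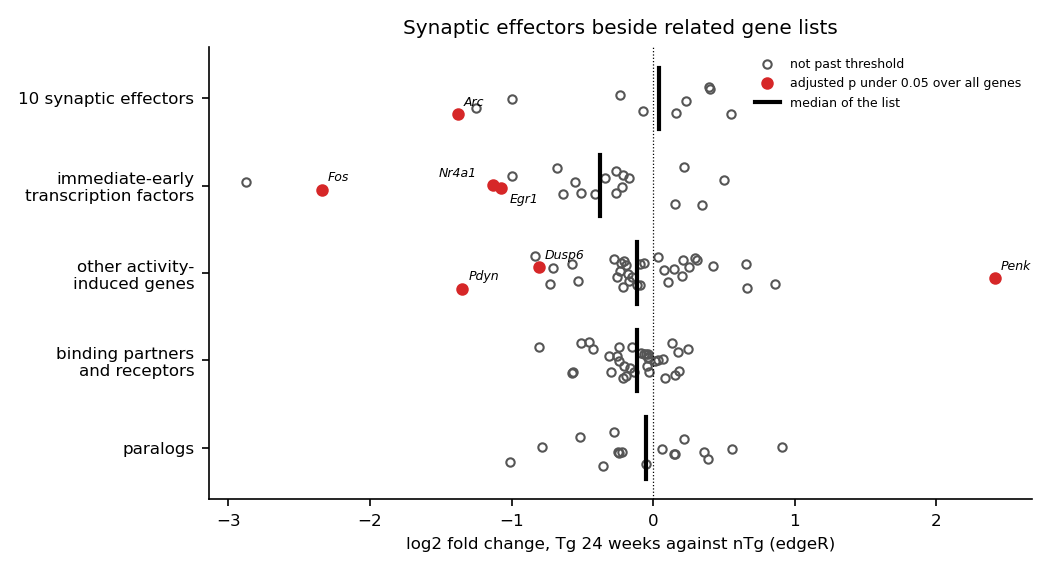
Log2 fold change at 24 weeks against nTg (x axis) for the 10 genes and 4 related lists (y axis), 1 point a gene, filled where the edgeR adjusted p is under 0.05, with the median of each list as a bar (vertical jitter has no meaning). The transcription factors have the lowest median, −0.37, and Penk is the called gene on the higher side, at 2.41.

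The summed granule cell markers, like Arc, Npas4 and Sik1, were lower in every 24-week Tg library than in every nTg library. The order by library matched in part. Tg_24w_3 had the lowest sum (433.2 CPM) and the lowest Arc (24.9 CPM) and Npas4 (3.906 CPM). The library nTg_15w_2 had the highest sum (664.3 CPM) and the highest Sik1 (13.37 CPM). The library with the highest Arc, nTg_24w_1, had the lowest granule cell sum among nTg (555.5 CPM), below Tg_15w_1 (573 CPM). Sik1 was lowest in Tg_24w_2 (4.708 CPM), which had the highest sum of the 24-week Tg libraries (534.4 CPM). The summed level of the 10 markers was 555.5 to 664.3 CPM in nTg, 508 to 573 CPM in 15-week Tg and 433.2 to 534.4 CPM in 24-week Tg libraries, with 9 of 10 negative at 24 weeks against nTg, a median of −0.55, 2 called lower and none at 0. Their part in the result was not tested, and in bulk tissue fewer cells of a type and less RNA per cell cannot be told apart. The choroid plexus markers, 8 of 8 detected, summed to 5087 to 6769 CPM in nTg, 1823 to 3874 CPM in 15-week Tg and 1884 to 6666 CPM in 24-week Tg libraries. Oligodendrocyte markers, 8 of 8 detected, summed to 5254 to 6304 CPM in nTg and 3994 to 5103 CPM in all Tg libraries. Meninges markers, 8 of 8 detected, summed to 125.6 to 163.6 CPM in nTg, 134.4 to 208.8 CPM in 15-week Tg and 203.3 to 265.7 CPM in 24-week Tg libraries. The 7 CA3 markers summed to 629.6 to 678.5 CPM in nTg, 657.3 to 708.5 CPM in 15-week Tg and 680.8 to 842.1 CPM in 24-week Tg libraries. The sums of both lists, meninges and CA3, were thus higher at 24 weeks than in nTg with no overlap. By gene, 3 CA3 markers were positive and 4 negative at 24 weeks against nTg, with a median of −0.178. Of the meninges markers 5 were positive and 3 negative, with a median of 0.492. Neocortex markers, 8 of 8 detected, were apart at 15 weeks, at 196.7 to 210.2 CPM against 163.6 to 183 CPM in nTg, and overlapped nTg at 24 weeks (147.7 to 196.8 CPM). Markers of blood (5 of 5 detected, 786.2 CPM in Tg_24w_3 against 144.7 to 402.2 CPM elsewhere) and of striatum (8 of 8 detected, 304.4 CPM against 150.9 to 196.8 CPM elsewhere, with 150.9 to 158.5 CPM in 15-week Tg and 162 to 187.8 CPM in nTg) were highest in Tg_24w_3, the library that also gave Bdnf, Nptx2, Homer1 and Rheb their highest values. The part of these other marker lists in the values was not tested. Of Bdnf, Nptx2, Homer1 and Rheb, only Bdnf was also highest in Tg_24w_3 on the TPM scale. Without Tg_24w_3, the log2 fold change at 24 weeks against nTg was −1.22 for Arc, −1.17 for Npas4 and −1.09 for Sik1.

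The genes most like 3 of the 10 in profile were found over 14940 genes with a mean of at least 1 CPM, by the root mean square difference of centred log2 CPM over 9 libraries. For Arc they were Spry4, which inhibits receptor tyrosine kinase signalling (0.114), Egr1 (0.196), Nr4a1 (0.218), Egr4 (0.22) and the predicted gene Gm42756 (0.282), against a median of 0.663 for all genes. For Sik1 they were the metalloprotease gene Adamts1 (0.157), Nr4a1 (0.158), Zfp976 (0.169), Egr4 (0.196) and Tiparp (0.21), against a median of 0.509. For Npas4 they were further away, from Slc16a10, an amino acid transporter (0.254), through 6330420H09Rik, Adamts17 and B3galt5 to 9430041J12Rik (0.299), against a median of 0.636. Among the 10 genes themselves, Arc and Sik1 differed by 0.316, Arc and Npas4 by 0.435 and Arc and Nptx2, the most unlike pair, by 0.936. All profiles share the same libraries, so depth and tissue makeup are common to them.

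**Figure D5:**
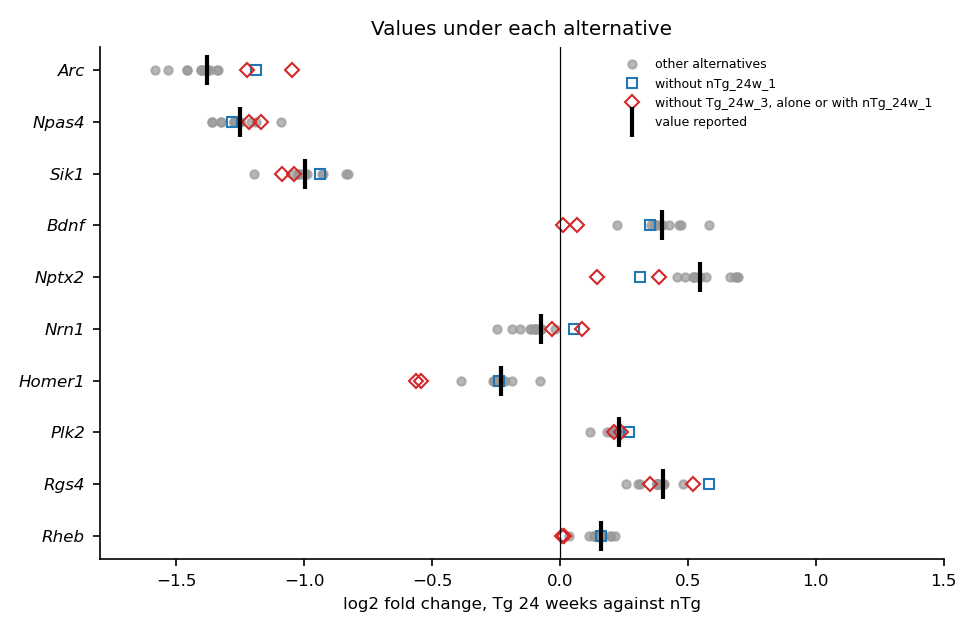
Log2 fold change at 24 weeks against nTg (x axis) of the 10 genes (y axis) as reported (bar) and under the 16 alternatives in processing and sample choice (points). Arc, Npas4 and Sik1 lie between −1.58 and −0.83 throughout, and Bdnf, Nptx2, Homer1 and Rheb shift when Tg_24w_3 is left out.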

How the data were processed

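Raw counts of reads per gene and TPM values of the 9 libraries were used as the authors deposited them; FPKM sheets were not used. Per the submitters' processing notes, reads were handled with CASAVA, HISAT2 2.1.0, Trimmomatic 0.38, DESeq2 1.26.0 and featureCounts 2.0.0 on GRCm38, in no stated order. Per the labels' protocols, RNA came from the RareRNA kit and libraries from the KAPA mRNA HyperPrep kit. Annotation and strand setting were not given in the sources used here. All 55536 gene identifiers matched GENCODE M21, which gave coordinates (1-based).

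The deposited counts were tested with edgeR 4.0.16 in R 4.3.3 (TMM, filterByExpr, glmQLFit and glmQLFTest, two-sided, Benjamini-Hochberg over all genes, threshold 0.05). Tg at 15 weeks, Tg at 24 weeks and the 3 pooled nTg libraries formed 1 fit, and the interaction was fitted on 4 groups (19574 genes). Log2 CPM used a prior count of 2. No libraries were identical (pairwise chi-square per degree of freedom 9.11 to 80.7). The test was checked on simulated data. Alternatives were DESeq2 1.42.0, its size factors in edgeR, no filter, a replicate block, each library left out, Tg_24w_3 and nTg_24w_1 both left out, same-age nTg and, chosen after seeing the data, limma on the deposited TPM values as log2(TPM + 0.5).

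The 10 genes and all lists were chosen with earlier results of these data known. The rule for named genes took all 10 in each comparison, up to 4 genes of smallest p from each of 4 lists, and the 5 genes nearest in profile to the 3 of the 10 with the largest SD.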

Additional observations from a re-analysis of the deposited data

How the results depend on the processing

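At 24 weeks against nTg, Nrn1 kept its sign in 14 of 16 alternatives and the other 9 genes in 16, which for groups that do not overlap follows from the choice of genes. With edgeR, no gene passed at 15 weeks against nTg, where DESeq2 called 2 genes and no filter on low counts 65, among them 1 of the 10 (Arc). At 24 weeks against nTg, where edgeR called 23 genes and 1 of the 10, DESeq2 called 218 genes (85 higher and 133 lower) and 3 of the 10, and no filter called 559 (354 higher and 205 lower) and 3 of the 10. There the replicate block gave 15 genes, same-age nTg 4 and none (0) of the 10, TPM with limma 12 and 0 of the 10, leaving out both Tg_24w_3 and nTg_24w_1 gave 107, and leaving out 1 library gave 4 (without nTg_15w_2) to 36 (without Tg_24w_3) genes and 0 to 1 of the 10. For Tg at 24 against 15 weeks the count was 6, against 289 with DESeq2, 701 with no filter (1 of the 10, Npas4), 71 without both libraries, 2 with TPM and 1 to 14 without 1 library, lowest without Tg_15w_1 or Tg_15w_3 and highest without Tg_24w_3. In the interaction 0 genes passed, against 1 with DESeq2, 17 with no filter, 1 with the replicate block, 4 without both libraries and 0 to 1 without 1 library. It could not be fitted without nTg_15w_2, which leaves no 15-week nTg.

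Small differences changed sign. Between Tg at 24 and 15 weeks Rheb, at 0.003 as reported, was at −0.011 with DESeq2 size factors, −0.012 with DESeq2, −0.019 with no filter, −0.002 with the replicate block, −0.154 without both libraries, −0.097 on TPM and −0.144 to 0.057 without 1 library. Nrn1 was there at −0.07 on TPM and −0.14 to 0.087 without 1 library, and Plk2 at −0.014 on TPM. In the interaction Arc was at 0.284 without both libraries and −0.692 to 0.159 without 1 library (highest without nTg_24w_1), Nrn1 at 0.148 and −0.286 to 0.135 likewise, Homer1 at 0.093 with the replicate block, Plk2 at −0.011, Sik1 at −0.012 and Rheb at −0.001 on TPM. Without 1 library Sik1 was there at −0.246 to 0.393 and Rheb at −0.015 to 0.206. The cause of these shifts was not tested. TPM moved the median of all genes at 24 weeks from 0.027 to −0.078.

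Replicate numbers did not pair the samples: of 9 pairs with the same number, 3 had a correlation of deviations over 0.1 (range −0.237 to 0.29), and the replicate block left Arc as the 1 called of the 10 at 24 weeks. Of the other genes named, it ended the calls of Egr1 (adjusted p = 0.0623) and Dusp6 (adjusted p = 0.087). Depth limits Npas4 and Sik1 most, at 48 and 76 reads in the shallowest library, and intervals cover counting and replicate spread only as far as 3 libraries a group show it.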
